A study of Mus musculus with 9 samples.

Results

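The genes described here code for enzymes that attach glucuronic acid (*Ugt*), sulphate (*Sult*) or glutathione (*Gst* and *Mgst*) to drugs, hormones and metabolites. They were chosen as the protein-coding genes whose GENCODE M1 symbol begins with Ugt, Sult, Gst or Mgst and that are listed in at least 1 of the 2 tables of results. This gave 43 genes of 12814 protein-coding genes listed, and 64 annotated protein-coding genes carry such a symbol. The 9 RNA-seq libraries came from AML12, a line of mouse hepatocytes kept in medium with dexamethasone. They comprised 3 libraries of cells with a control shRNA label and 3 each of cells infected for 5 days with lentivirus carrying shRNA 1 or shRNA 2 against *Srrm2*, which encodes a scaffold protein of nuclear speckles. All 3 groups come from this single cell line, and the labels do not say whether the 3 libraries of a group are separate cultures.

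The value used for each gene was its mean normalized count, which the authors computed over the control and shRNA 1 libraries in one table and over the control and shRNA 2 libraries in the other. They are called the shRNA 1 table and the shRNA 2 table below. A mean of this kind mixes 3 control with 3 knockdown libraries, has no error attached, and cannot show how a hairpin differs from the control. The authors' own fold changes and p-values stand in the same tables and were not used, so no gene is said to have risen or fallen upon *Srrm2* knockdown. Values per library and the depth of each library were not analysed here. The means of all listed genes sum to 6144608 in the shRNA 1 table and 6393456 in the shRNA 2 table. *Srrm2* itself had means of 3428 and 3759, and how far it was depleted cannot be read from these pooled means.

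Conjugation makes a compound more soluble in water, so that it can leave the hepatocyte in bile or blood. UDP-glucuronosyltransferases (Ugt) sit in the endoplasmic reticulum and take the sugar from UDP-glucuronic acid. Sulphotransferases (Sult) are soluble enzymes that use the activated sulphate PAPS, and glutathione transferases (Gst) are mostly soluble, while the Mgst proteins lie in membranes. In mouse, many of these genes stand in rows of close relatives on a chromosome, and such relatives share sequence.

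Shared sequence bears on the values of the members that have it, because only uniquely mapped read pairs were counted. A pair within exons that several genes have in common likewise cannot be assigned to 1 of them. It was measured as the share of a gene's 100-base words, over its coding transcripts, that also occur in a coding transcript of another gene. At least 10% of the words were shared for 14 of the 43 members: the 8 *Ugt1a* genes, *Gstp1*, *Gstp2*, *Gsta1*, *Gsta2*, *Gstt3* and *Ugt2b5*. The coding sequences of *Gstp1* and *Gstp2*, each of 633 bases, differed at 12 positions (98.1% identity), and their longest identical run was 303 bases. Coding bases 1 to 120 of GENCODE M1, which hold 6 of the 12 differences, are shown for both genes, with the differing bases in capitals.
Gstp1: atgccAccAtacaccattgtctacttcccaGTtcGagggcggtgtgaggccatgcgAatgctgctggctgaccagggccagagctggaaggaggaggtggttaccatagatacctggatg
Gstp2: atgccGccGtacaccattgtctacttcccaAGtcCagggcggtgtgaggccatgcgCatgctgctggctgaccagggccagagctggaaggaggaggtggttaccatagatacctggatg
A read that lies between the capitals fits both genes. In 100-base words, 57.3% of *Gstp1* and 57.7% of *Gstp2* were shared with each other.

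The *Ugt1a* genes share sequence for another reason. Each has its own start exon, which is joined to the same set of downstream exons, so that the enzymes differ in the part that binds the substrate and have the same part for UDP-glucuronic acid. In the 8 listed *Ugt1a* genes the last 740 coding bases were identical. They are shown for 4 of the genes, with the 45 bases before them in lower case and the first 30 common bases in capitals. The capitals mark where the sequence common to all 8 genes begins. The lower-case bases of *Ugt1a6a* and *Ugt1a6b* are nearly the same, so a read before the capitals may already fit both of these genes. The same holds for *Ugt1a2* and *Ugt1a5*, not shown, whose 45 bases before the common part are identical.
Ugt1a1: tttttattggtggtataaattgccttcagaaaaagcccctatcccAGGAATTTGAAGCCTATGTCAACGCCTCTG
Ugt1a6a: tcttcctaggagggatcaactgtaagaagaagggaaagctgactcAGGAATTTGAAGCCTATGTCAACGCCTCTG
Ugt1a6b: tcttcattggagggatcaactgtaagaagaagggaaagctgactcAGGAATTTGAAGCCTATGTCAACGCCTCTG
Ugt1a9: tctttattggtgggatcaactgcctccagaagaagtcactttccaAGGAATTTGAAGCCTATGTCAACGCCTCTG
Over the whole coding part before the common bases, *Ugt1a6a* and *Ugt1a6b* differed at 26 bases when compared position by position without gaps. The same comparison gave 575 between either of them and *Ugt1a7c*. An insertion or deletion would inflate such a count, so 575 is not a measure of how far aligned sequences differ. Of the exon bases of *Ugt1a1*, 1311 of 2224 are also exon of another gene on the same strand, which leaves 913 bases. With both strands taken, 1839 of the 2224 are also exon of another gene, and the strand setting of the counting is not known here.

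Glutathione transferases held most of the counts. *Gstp1* and *Gsta3* were the highest of all members per length, and the 43 members together made up 0.236% of the summed means in the shRNA 1 table and 0.242% in the shRNA 2 table. The levels of the members spanned a wide range, from *Gstp1* at 4016 down to *Ugt2a3* at 0.907 mean normalized counts per kb of exon. These levels are the average of the tables after scaling, except for *Ugt2a3* and *Gsta2*, which only 1 table lists. Means reached 10 in both tables for 32 members and 100 for 17. Over the 32, the median level was 66.3 per kb, beside 58.9 per kb for the 11099 protein-coding genes with the same minimum, and 17 of the 32 lay above that value. Since no error is attached, neighbours in the order of levels cannot be told apart by a test.

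The alpha class, which handles steroid intermediates and products of lipid peroxidation, was led by *Gsta3* (ENSMUSG00000025934.9, chromosome 1, 21230670 to 21255442 on the + strand of mm9). Its mean normalized count was 3588 in the shRNA 1 table and 3991 in the shRNA 2 table, or 2653 per kb on the average of both, which is percentile 99.5 of the genes with the same minimum. *Gsta4*, whose product acts on aldehydes from oxidized lipids, had means of 264.3 and 253.6. It lies on chromosome 9 (78039773 to 78057155) in a row with *Gsta1* and *Gsta2*. These 2 were low: *Gsta1* had means of 8.04 and 15.8, and *Gsta2* was listed in the shRNA 2 table alone with a mean of 3.32. Of the 100-base words of *Gsta1*, 81.8% occur in *Gm3776*, *Gsta2* or *Gm10639*, so its count is uncertain.

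The pi class was represented by *Gstp1* (ENSMUSG00000060803.3, chromosome 19, 4035411 to 4037921, - strand) and its neighbour *Gstp2* (4040291 to 4042221). *Gstp1* had means of 3016 and 3187, and *Gstp2* 489.5 and 528.7. Per kb *Gstp1* was 6.06-fold higher than *Gstp2*, although the lengths and the shared part of both genes are nearly equal. Pi-class transferase conjugates electrophiles and also binds signalling kinases. The class held 24.2% of the members' summed means in the shRNA 1 table and 24.0% in the shRNA 2 table, next to 26.6% and 27.6% for the alpha class.

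Mu-class genes form a row of 7 listed members over 149 kb of chromosome 3 (107698739 to 107847812), and they differed widely in level. *Gstm1* (ENSMUSG00000058135.6, 107815173 to 107820891) had means of 1071 and 1367, and *Gstm2* had 640.0 and 721.9. *Gstm7* followed with 125.1 and 119.8, and *Gstm5* with 81.8 and 103.4. *Gstm4*, *Gstm6* and *Gstm3* were lower, with means between 2.40 and 24.4. Per kb, the highest of the row was 390-fold above the lowest.

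Among the other soluble transferases, *Gsto1* (chromosome 19, 47929460 to 47939280), an omega-class enzyme that reduces rather than conjugates many substrates, had means of 1470 and 1437. Its neighbour *Gsto2* had 9.89 and 7.56, so that *Gsto1* was 146-fold higher per kb. *Gstz1*, which isomerizes maleylacetoacetate in tyrosine breakdown, had 316.2 and 316.6. *Gstt1*, of the theta class that acts on small halogenated compounds, had 219.3 and 255.6, above *Gstt2* (44.0 and 56.9) and *Gstt3* (42.9 and 51.7) in the same row on chromosome 10. *Gstcd*, named for a transferase-like domain, had 183.5 and 176.1, and *Gstk1*, the kappa-class enzyme of mitochondria and peroxisomes, had 66.1 and 61.6. Of the membrane-bound forms, *Mgst1* was highest with 737.8 and 810.2, *Mgst3* had 159.6 and 173.8, and *Mgst2* had 89.7 and 82.1.

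**Figure D1:**
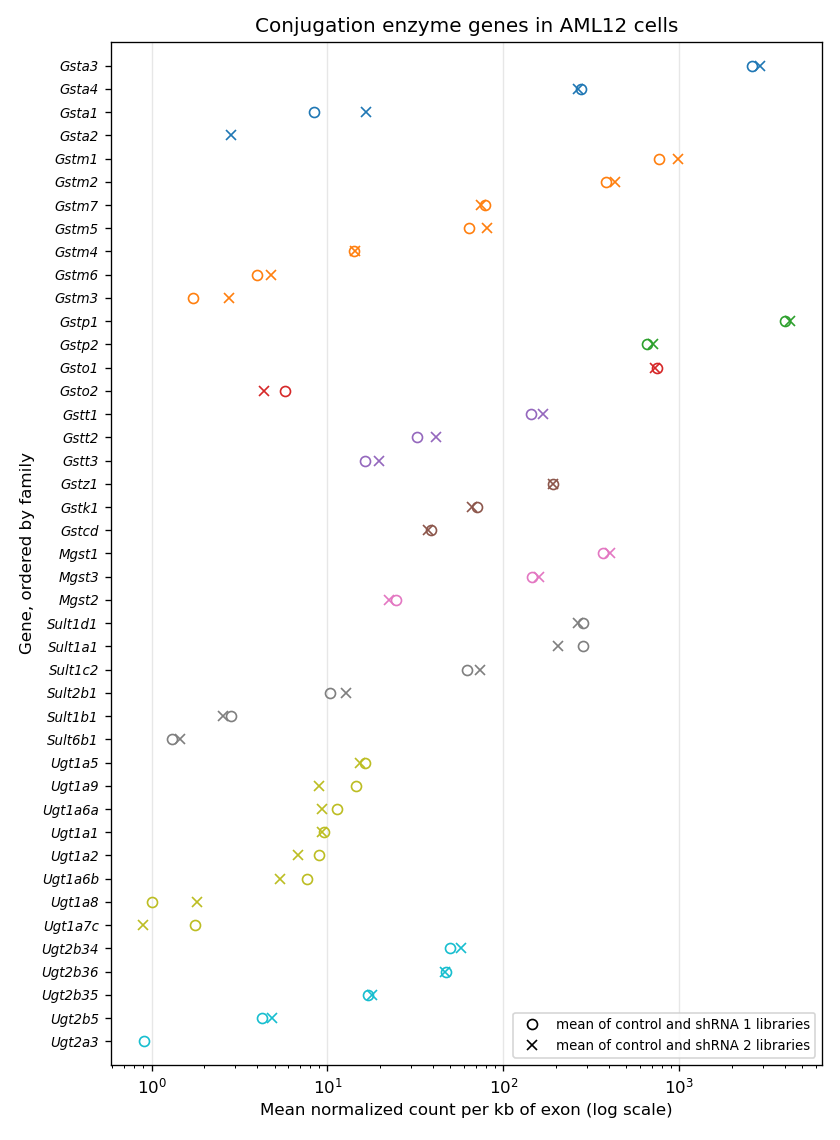
Mean normalized count per kb of exon (x axis, log scale) of each of the 43 members (y axis, ordered by family), with a circle for the mean of control and shRNA 1 libraries and a cross for the mean of control and shRNA 2 libraries; no error is given for these means. *Gstp1* and *Gsta3* stand at the top and the *Ugt1a* genes below 20 per kb, and most circles and crosses nearly coincide.

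Sulphotransferases were carried by few genes. Of 17 annotated *Sult* genes, 6 were listed and 3 reached a mean of 100 in both tables. *Sult1d1*, which sulphates catecholamines in mouse (chromosome 5, 87983670 to 87998052), had means of 692.2 and 652.7. *Sult1a1*, the main phenol sulphotransferase (ENSMUSG00000030711.8, chromosome 7, 133816379 to 133819946, - strand), had 425.8 and 306.9. *Sult1c2* had 113.8 and 135.0, and *Sult2b1*, an enzyme of cholesterol and hydroxysteroid sulphation, 19.5 and 24.1. *Sult1b1* and *Sult6b1* stayed under 10 in both tables. The genes *Sult2a1* to *Sult2a6*, whose products sulphate bile acids and hydroxysteroids, and the oestrogen sulphotransferase *Sult1e1* were among the 21 annotated members with no value in either table. A gene without a value was not necessarily at 0, since the tables list genes that the authors' filter had kept.

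The *Ugt1a* genes had the lowest median level of the 10 families per kb. None of them had a mean of 100 in either table, and the median of the 6 that reached 10 in both was 9.66 per kb, beside 35.8 for the theta-class *Gst* genes and 45.9 for the other *Ugt* genes. *Ugt1a6a* (ENSMUSG00000054545.10, chromosome 1, 89999827 to 90116577) had the highest means of the 8, with 66.6 and 54.7. *Ugt1a5* had 36.0 and 33.5, *Ugt1a9* 31.8 and 19.5, *Ugt1a1*, the bilirubin-conjugating enzyme, 21.3 and 20.6, *Ugt1a2* 19.7 and 15.0, and *Ugt1a6b* 18.1 and 12.8. *Ugt1a7c* (5.70 and 2.89) and *Ugt1a8* (2.24 and 4.03) were near the bottom of the list. Counted on the exon bases that no other gene on the same strand shares, the level of *Ugt1a5* was 38.1 per kb instead of 15.4. That of *Ugt1a1* was 22.4 instead of 9.20, although part of these bases is exon of a gene on the other strand. The level per kb of these genes therefore depends on the length taken.

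**Figure D2:**
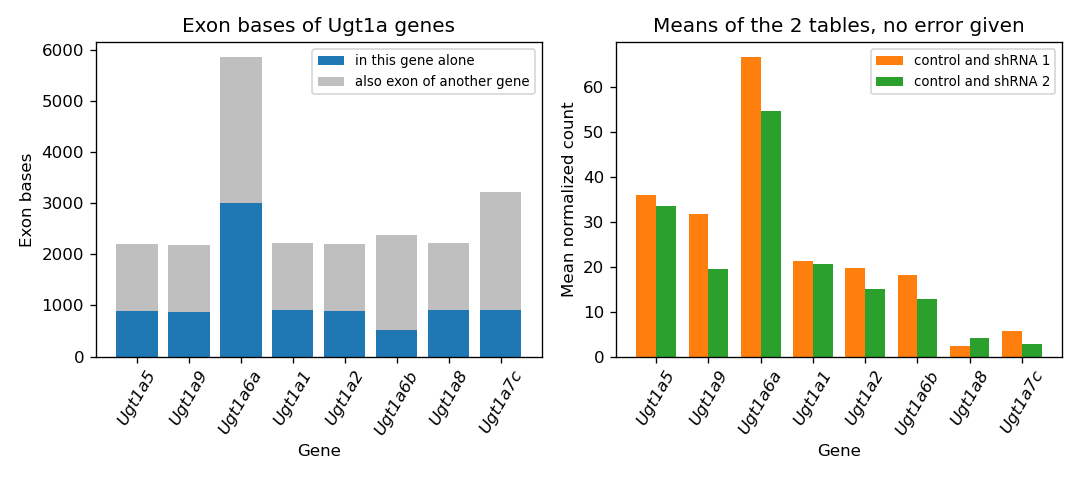
Left, exon bases (y axis) of the 8 listed *Ugt1a* genes (x axis), split by overlap with other genes on the same strand. Blue bases, labelled as in this gene alone, overlap no exon of another gene on that strand, and grey bases do. Right, mean normalized count (y axis) of each gene in the shRNA 1 table (orange) and the shRNA 2 table (green). Grey bases outnumber blue bases in all but *Ugt1a6a*, and the orange bar is the higher of the pair in 7 of the 8 genes.

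The *Ugt2* family lies on chromosome 5. *Ugt2b34* (87318792 to 87335962, - strand) had means of 213.0 and 248.2, *Ugt2b36* had 97.2 and 96.4, and *Ugt2b35* had 56.3 and 59.3. *Ugt2b5* had 8.01 and 9.07, with 24.3% of its 100-base words found in *Ugt2b38* or *Ugt2b37*, and *Ugt2a3* was listed in the shRNA 1 table alone with a mean of 1.92. *Sult1b1* and *Sult1d1* stand in the same row of 7 listed genes, over 679 kb. *Sult1d1* was the highest of the row per kb, at 267, and *Ugt2b34* was next at 52.1.

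To ask which members may differ between the hairpins, the means of both tables were compared gene by gene. The tables were normalized separately, so the shRNA 2 means were first divided by 1.05, the median ratio over the 11099 protein-coding genes whose mean reached 10 in both. The samples include a single control group, and if both tables rest on the same control libraries, a ratio other than 1 comes from the hairpin libraries. The ratio then understates the difference between them: where it is under 1, the shRNA 2 mean is at most that fraction of the shRNA 1 mean, and where it is over 1, at least that multiple. That the control libraries are the same was taken from the titles and not tested, and for 2 of the 3 control libraries the sample description names tables of other hairpins in place of the shRNA 2 table. If the tables hold different control libraries, these bounds do not apply. The ratio has no replicate error and no p-value, and 14.2% of all genes with this minimum were past a log2 ratio of 0.25 in either direction.

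Of the 32 members with this minimum, 8 were past a log2 ratio of 0.25, which is 25% of them, with 3 higher and 5 lower in the shRNA 2 table. Over all genes, 6.69% were higher and 7.46% lower by this amount. The ratio scattered more among genes with few counts. Its SD over all protein-coding genes was 0.15 where both means reached 100, 0.28 at lower means down to 10, and 0.52 below that. Where both means reached 100, 2 of 17 members were past the limit, against 8.62% of all such genes. The other 6 of the 8 were among the 15 members that reached 10 but not 100 in both, a range where 26.7% of all 3406 genes were past the limit. Over the 32 members the median log2 ratio was -0.06, with 15 above 0 and 17 below, and it was 0.00 over all genes by construction.

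The members with the smallest ratios included *Sult1a1* and *Ugt1a* genes. *Sult1a1* had the lowest log2 ratio of the 17 members whose means reached 100, -0.54, from means of 425.8 and 306.9. On the linear scale its ratio was 0.686, and its level was lower in the shRNA 2 table. The other sulphotransferases past a mean of 100, *Sult1d1* and *Sult1c2*, had log2 ratios of -0.16 and 0.17, so their signs differed.

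All 6 *Ugt1a* genes whose means reached 10 in both tables had a log2 ratio below 0, with a median of -0.41. Of these, 4 were past 0.25, *Ugt1a9* at -0.78, *Ugt1a6b* at -0.57, *Ugt1a2* at -0.46 and *Ugt1a6a* at -0.36. *Ugt1a5* at -0.17 and *Ugt1a1* at -0.12 were not. Of the genes under a mean of 10, *Ugt1a7c* had -1.05 and *Ugt1a8* 0.77. The summed means of all 8 were 201.4 in the shRNA 1 table and 163.1 in the shRNA 2 table, a log2 ratio of -0.38 after scaling. These genes overlap and share exons, so they are not independent measurements. A read of *Ugt1a6a* or *Ugt1a6b* in particular may fit both, as may a read of *Ugt1a2* or *Ugt1a5* near the common exons. For the *Ugt2b* genes on chromosome 5 the log2 ratios were 0.15 for *Ugt2b34*, 0.00 for *Ugt2b35* and -0.08 for *Ugt2b36*.

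The 3 members past 0.25 in the other direction were glutathione transferases. *Gstm1* had a log2 ratio of 0.28, from means of 1071 and 1367, and *Gstm5* 0.27, from 81.8 and 103.4. *Gstt2* had 0.30, from 44.0 and 56.9. All lay close to the limit of 0.25, and *Sult2b1* at 0.24 was just inside it. The other mu-class genes whose means reached 10 had log2 ratios of 0.10 (*Gstm2*), -0.05 (*Gstm4*) and -0.13 (*Gstm7*), and the other theta-class genes 0.15 (*Gstt1*) and 0.20 (*Gstt3*). Of the 5 members with the highest levels per kb, *Gstm1* was past the limit, and the others had log2 ratios of 0.01 (*Gstp1*), 0.08 (*Gsta3*), -0.10 (*Gsto1*) and 0.04 (*Gstp2*). *Gsta1* had a log2 ratio of 0.90 but a mean under 10 in the shRNA 1 table, and it is named after its value was seen.

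**Figure D3:**
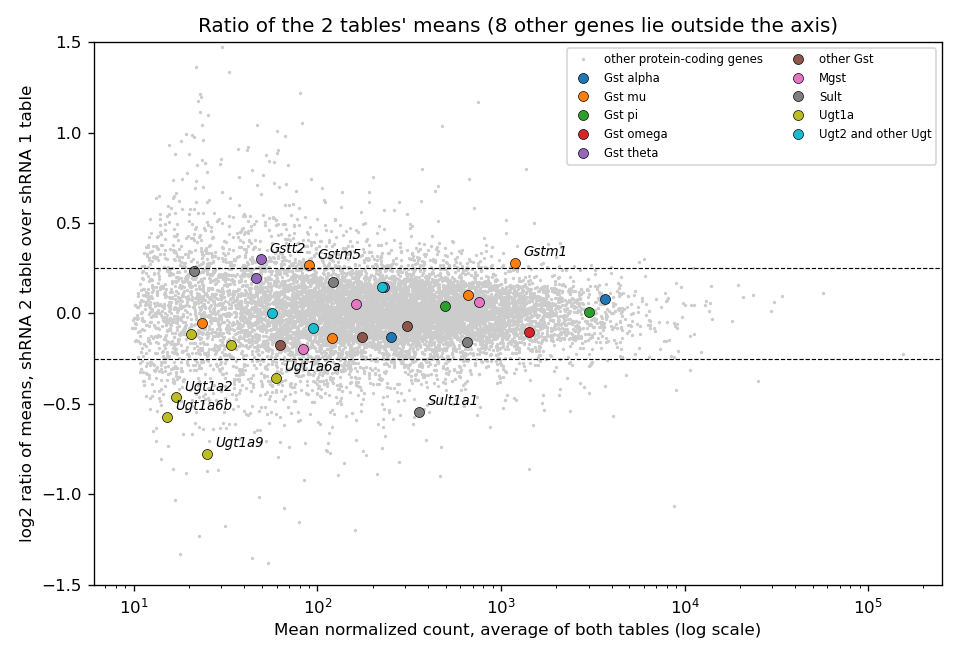
Log2 ratio of the mean normalized count in the shRNA 2 table over that in the shRNA 1 table, after scaling (y axis), against the average mean normalized count (x axis, log scale) for 32 members (coloured by family) and the other protein-coding genes whose means reached 10 in each table (grey). Dashed lines mark log2 ratios of 0.25 in either direction and labels name the 8 members past them, of which *Ugt1a9* lies lowest, at -0.78, and 8 grey points fall outside the axis.

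Promoters are shown for the 2 members with the highest level per kb, for *Gstp2* beside its close relative, and for *Sult1a1* and *Ugt1a9*, which had the lowest log2 ratios among the members whose means reached 100 in both tables and among the other members whose means reached 10. The motifs and the promoters shown were chosen with the members' values in view. Each is the 250 bases before the start site from RefSeq on GRCm38.p6, 5′ to 3′ along the gene, and its coordinates are not those of mm9. Capitals mark matches to 4 short motifs searched on both strands. TGACNNNGC is a form of the core of the antioxidant response element bound by Nrf2, and GCGTG is the core bound by the aryl hydrocarbon receptor. The others are the TATA box TATAAA and the GC box GGGCGG. The windows are chr1:21240335-21240584 (+) for *Gsta3*, chr19:4037913-4038162 (-) for *Gstp1*, chr19:4042222-4042471 (-) for *Gstp2*, chr7:126676419-126676668 (-) for *Sult1a1* and chr1:88070529-88070778 (+) for *Ugt1a9*.
Gsta3: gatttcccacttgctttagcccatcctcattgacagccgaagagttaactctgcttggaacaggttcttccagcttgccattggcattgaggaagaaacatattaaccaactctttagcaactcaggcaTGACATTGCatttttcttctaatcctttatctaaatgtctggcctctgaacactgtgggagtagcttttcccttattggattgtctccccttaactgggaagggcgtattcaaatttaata
Gstp1: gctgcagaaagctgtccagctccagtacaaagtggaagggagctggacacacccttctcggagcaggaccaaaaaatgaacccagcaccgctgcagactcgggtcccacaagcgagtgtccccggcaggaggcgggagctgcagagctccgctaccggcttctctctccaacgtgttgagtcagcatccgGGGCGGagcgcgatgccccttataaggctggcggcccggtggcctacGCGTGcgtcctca
Gstp2: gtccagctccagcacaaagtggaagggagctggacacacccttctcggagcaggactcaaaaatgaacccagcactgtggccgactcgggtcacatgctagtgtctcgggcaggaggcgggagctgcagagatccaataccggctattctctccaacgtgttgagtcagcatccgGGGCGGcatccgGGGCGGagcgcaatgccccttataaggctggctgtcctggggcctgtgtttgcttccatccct
Sult1a1: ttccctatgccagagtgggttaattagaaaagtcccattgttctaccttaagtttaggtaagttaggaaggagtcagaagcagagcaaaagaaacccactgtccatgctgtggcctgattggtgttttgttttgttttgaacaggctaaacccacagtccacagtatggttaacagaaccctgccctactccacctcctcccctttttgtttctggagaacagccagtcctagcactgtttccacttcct
Ugt1a9: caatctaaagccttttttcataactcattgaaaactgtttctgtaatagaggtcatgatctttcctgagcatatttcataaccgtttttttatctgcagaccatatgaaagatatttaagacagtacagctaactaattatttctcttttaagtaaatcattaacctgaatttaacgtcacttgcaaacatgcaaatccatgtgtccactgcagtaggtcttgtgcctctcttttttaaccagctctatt
The *Gsta3* window holds the antioxidant response core 121 bases before the start. The *Gstp1* window holds 1 GC box and 1 aryl hydrocarbon receptor core, and that of *Gstp2* holds 2 GC boxes. Both of these windows also hold tgagtcagc, which has G where the pattern TGACNNNGC has C. The search did not count it, so an antioxidant response element in them is not excluded. The windows of *Sult1a1* and *Ugt1a9* hold none of the 4 motifs.

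Over all members, 40 of 43 matched the RefSeq table by symbol, with 52 windows from 250 bases before to 50 bases past the start. The antioxidant response core was in 7.69% of the members' windows (*Gsta3*, *Gstm5*, *Gstm7* and *Mgst1*) and in 12.4% of all 32851 windows. The aryl hydrocarbon receptor core was in 26.9% against 32.4% of all, the TATA box in 11.5% against 13.6%, and the GC box in 34.6% against 35.7%. The members' share was below that of all windows for each of the 4 motifs, with no test made. For the antioxidant response core this holds only for the form TGACNNNGC, since variants with another base were not searched. A match describes letters and is not evidence of a bound factor.

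The genes that supply the co-substrates and remove the products were taken from fixed lists, with levels given per kb of exon. All 4 genes of UDP-glucuronate supply were listed, led by *Ugdh*, which oxidizes UDP-glucose, at 226 per kb, *Ugp2* at 202 and the transporter gene *Slc35b1* at 97.0. *Slc35b1* and *Slc35d1*, which carries UDP-glucuronic acid into the endoplasmic reticulum, were past a log2 ratio of 0.25, at -0.36 and -0.26, with *Ugp2* at -0.23 and *Ugdh* at 0.09. All 4 had means of at least 100 in both tables, and this count of 2 stands beside 8.62% of all such genes past the limit in either direction. Of 7 genes of sulphate donor supply 6 were listed, led by *Bpnt1* at 154, the PAPS synthase *Papss1* at 123 and *Impad1* at 78.9 per kb. *Bpnt1*, which clears the product left by PAPS, had a log2 ratio of -0.31, and the other 5 were not past 0.25. All 6 had means of at least 100 in both tables, where again 8.62% of all genes were past the limit. All 11 genes of glutathione supply were listed. *Gclc*, the catalytic subunit of the enzyme that limits glutathione synthesis, stood out with means of 6904 and 6146, or 1862 per kb, above all members other than *Gstp1* and *Gsta3*. *Gsr*, which regenerates reduced glutathione, followed at 320 and *Gclm* at 137. Of the 10 genes whose means reached 10, only *Chac2* was past 0.25, at -0.37. Its means lay between 10 and 100, a range where 26.7% of all genes were past the limit.

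Of 12 symbols written for other conjugation and deconjugation routes, 10 matched annotated protein-coding genes and 8 were listed. *Gusb*, which removes glucuronic acid, stood at 122 per kb and *Arsa*, a sulphatase gene, at 84.3. Of the 6 whose means reached 10, only *Glyat*, the glycine-conjugating enzyme, was past 0.25, with a log2 ratio of -0.47. Its means lay between 10 and 100, a range where 26.7% of all genes were past the limit. All 6 efflux pump genes had means of at least 100, led by *Abcc4* at 463, *Abcc3* at 295 and *Abcc2* at 156 per kb. *Abcc2*, the pump that moves conjugates into bile, was the only one past 0.25, at 0.37, from means of 780.4 and 1058. Over all genes whose means reached 100 in both tables, 8.62% were past the limit. Of 18 regulators 17 were listed, led by *Hnf4a* at 303, *Nfe2l2* (Nrf2) at 299 and *Maff* at 242 per kb. *Nr1i3*, the constitutive androstane receptor that induces many conjugation genes, had no value in either table, and the pregnane X receptor *Nr1i2* had means of 23.2 and 28.6. Of the 16 regulators whose means reached 10, the glucocorticoid receptor *Nr3c1* (-0.34) and *Cebpb* (-0.25) were past the limit downward. Over all genes with this minimum, 7.46% were past it downward.

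The label of hepatocytes was checked on fixed markers. Of 12 hepatocyte markers 9 were listed, with *Ttr* at 2054, *Apob* at 1496 and *Alb* at 949 per kb, but *Apoa1* at 30.9 and *Tat* at 1.49, and *Apoa2*, *Apoc3* and *Pck1* had no value in either table. Of 6 bile duct markers 5 were listed, with *Spp1* at 2484, *Krt19* at 1474, *Krt7* at 205, *Sox9* at 167 and *Cftr* at 4.08 per kb, and *Epcam* had no value. Of 7 mesenchymal or stellate markers 3 were listed, with *Vim* at 1825 per kb but *Des* at 1.79 and *Col1a1* at 0.582, and *Acta2*, *Col1a2*, *Lrat* and *Pdgfrb* had no value. No endothelial marker was listed, and the 3 macrophage markers listed were at or under 21.3 per kb. In bulk RNA, fewer cells of a type and less RNA per cell cannot be told apart. The summed means of the listed markers in the shRNA 1 and shRNA 2 tables were 27210 and 29657 for hepatocytes, 8933 and 9524 for bile duct cells, 4389 and 4369 for mesenchymal or stellate cells, and 56.6 and 62.6 for macrophages, before scaling. Of the 8 hepatocyte markers whose means reached 10, 3 were past 0.25, *Fgb* (-0.60) and *Alb* (-0.32) downward and *Serpina1a* (0.36) upward. Of the 5 such bile duct markers, *Cftr* (0.28) was past it. Over all genes, 8.62% were past the limit where both means reached 100, as for *Alb* and *Serpina1a*. That share was 26.7% where means reached 10 but not 100 in both, as for *Fgb* and *Cftr*. The part of these markers in the ratios of the conjugation enzymes was not tested.

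**Figure D4:**
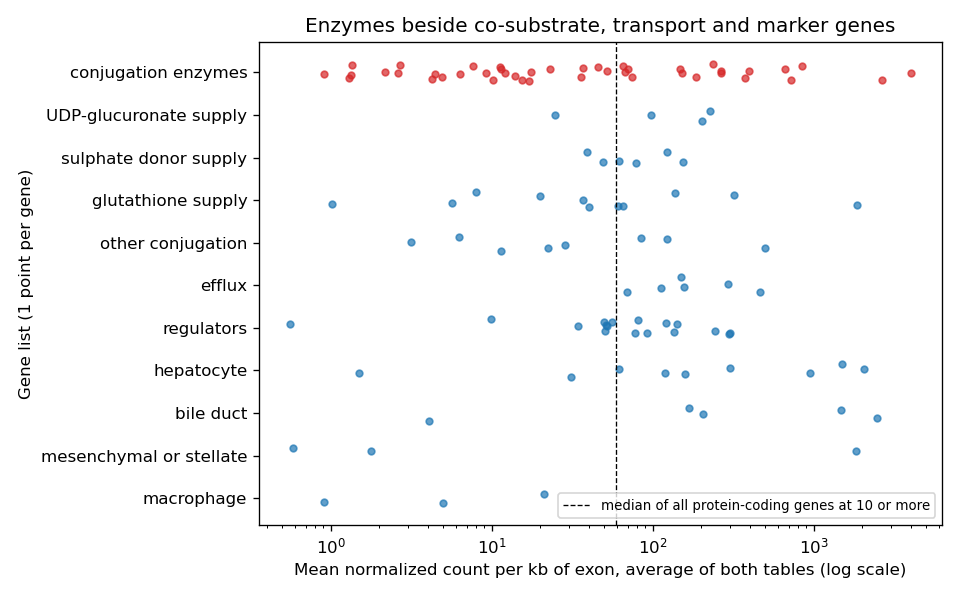
Mean normalized count per kb of exon, average of both tables (x axis, log scale), for the 43 conjugation enzymes (red) and the listed genes of 10 fixed lists (blue, y axis), with 1 point per gene. The dashed line is the median of all protein-coding genes whose means reached 10 (58.9 per kb), and the enzymes spread to both sides of it while all 6 efflux genes lie to its right.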

How the data were processed

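RNA-seq libraries of AML12 cells (3 control, 3 shRNA 1 and 3 shRNA 2) were assigned to groups by their titles. After trimming, the authors aligned reads to mm9 (TopHat2). Concordant pairs with a unique position were kept, HTSeq gave counts for the genes of GENCODE M1, and the authors applied DESeq2 (version 1.8.2) with default settings. Their methods describe strand-specific polyA-enriched libraries, and the strand setting of the counting is not given in the sources used here. The authors deposited, for each hairpin against the control, a signal value per gene, the mean of the counts divided by size factors over the 6 libraries of that table. The same tables hold the authors' log2 fold changes, standard errors, test statistics, p-values and adjusted p-values, which are the authors' own comparisons and were not used. The tables list 13424 and 13478 genes, with lowest means of 1.56 and 1.92, and 13259 genes are in both. All identifiers matched GENCODE M1, whose coordinates are those of NCBIM37 (mm9). Single libraries have no value in the columns used, so the depth of single libraries and the replicate error are not known here and no test was made.

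Levels were divided by the union of annotated exons. The ratio of the means was scaled by its median and read at a log2 value of 0.25 and a minimum mean of 10. Its direction was tried only on simulated libraries with large changes and the same controls for both tables. That simulation cannot show whether small ratios have the right direction, nor whether the control libraries are the same. Named are the members with a mean of at least 100 in either table or past that ratio, and from each list the 3 highest per kb, except that some list genes are not reported here. Other members, list genes past the ratio and single markers were named after their values were seen. Members, lists and limits were chosen with earlier results of these data known, and the motifs, the 10% of shared words and the 500 kb gap that ends a row of genes with the values in view. Alternatives were other minimum means, lengths, scalings, a pseudocount of 1 and words of 50 and 150 bases. Python 3.11.15, numpy 2.4.6, pandas 2.3.3 and matplotlib 3.10.9 were used.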

Additional observations from a re-analysis of the deposited data

How the results depend on the processing

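The count of 17 members whose means reached 100 in both tables was 23 at a minimum of 50 and 13 at 200. The median level of the members, 66.3 per kb, was 75.1 with the longest coding transcript as length, 62.8 and 69.7 from the shRNA 1 and the shRNA 2 table alone, and 22.9 with no minimum mean, which brings in the low members. The 8 members past a log2 ratio of 0.25 were 9 with scaling by the summed means and 10 with no scaling. They were 2 at a minimum mean of 100, where fewer genes remain, and 13 with no minimum. The median log2 ratio of the members, -0.060, was -0.046 with scaling by the summed means and -0.061 with a pseudocount of 1, and it changed sign to 0.039 at a minimum mean of 100. Each of the 8 single ratios kept its sign under the other scalings and the pseudocount, and in all 24 of these values the ratio stayed past 0.25. The other scalings raise every log2 ratio by the same amount, at most 0.072, so none of these signs could change under them. The pseudocount is small beside these means, so the 24 values are no independent check of single genes. Shared sequence was found for 16 members with words of 50 bases and 14 with words of 150. Leaving out a replicate was not run, because no value per library was used. No paired analysis was possible because the values are means over libraries, to which replicate numbers cannot be attached. The means carry no error, so whether a ratio exceeds the spread between replicates was not tested.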
